A study of Homo sapiens with 6 samples.

Results

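Liver transcription factors are DNA-binding proteins that together set up and maintain the hepatocyte program. The 8 genes described here were chosen by name, as HNF4A, FOXA1, FOXA2, FOXA3, CEBPA, ONECUT1, NR1H4 and NR5A2, of the 20033 protein-coding genes on chromosomes 1 to 22, X and Y in GENCODE 44 (hg38). A ChIP-seq peak was counted at a gene when it touched the annotated gene body or the 10 kb on either side. The study profiled histone lysine benzoylation (Kbz) and acetylation (Kac) in HepG2, a cell line derived from a human liver tumor, with pan antibodies that recognize the mark on any histone lysine. The 6 libraries made up 6 groups with 1 library each: input, Kac and Kbz, from control cells and from cells given 10 mM sodium benzoate (SB) for 24 h. The 3 peak lists used were control Kac with 70326 peaks, SB Kac with 63282 and SB Kbz with 24308. No peaks were called for control Kbz according to its label, so Kbz had no untreated counterpart, and the input libraries were not analysed here.

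The factors act as a network in which members bind one another's regulatory DNA. HNF4A, NR1H4 and NR5A2 are nuclear receptors. The FOXA proteins are forkhead pioneer factors that can bind nucleosomal DNA, CEBPA is a basic leucine zipper factor, and ONECUT1 (also called HNF6) carries a cut domain and a homeodomain. HNF4A is transcribed from alternative promoters: P1, the main promoter in adult liver, and P2, which lies upstream and is known from the pancreas and from development. Lysine acetylation of histones marks active promoters and enhancers.

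The labelled cell type was first compared with its defining markers. The coding start sites of 10 hepatocyte genes (ALB, APOA1, APOA2, APOB, TTR, SERPINA1, TF, FGB, AHSG and AFP) were looked up, and 0 of 10 lay under a peak in control Kac, SB Kac or Kbz. Over all 19689 genes with an annotated coding transcript, a coding start lay under a control Kac peak in 64.6%, under an SB Kac peak in 65% and under a Kbz peak in 51.1%. Within 3 kb of a coding start, 5 of the 10 had a control Kac peak, the same number an SB Kac peak, and 2, APOA1 and APOA2, a Kbz peak. These apolipoprotein genes ranked high: by fold within each list, the strongest promoter peak of APOA1 stood at percentile 96.6 for control Kac, 95.2 with SB and 95.5 for Kbz, and that of APOA2 at 87.5, 95.4 and 90.2. Anywhere in the gene body or its 10 kb flanks, 7 of the 10 had control Kac, 8 SB Kac and 4 Kbz (84.6%, 83.1% and 75.2% of coding genes). ALB, APOB, SERPINA1, FGB and AFP had no peak within 3 kb in any list, which was so for 22.3% of coding genes. Of 12 markers of blood, vessel, connective tissue, neuron and islet cells, 7 had control Kac, 7 SB Kac and 4 Kbz within 3 kb of a coding start. Both marker lists stood below the shares of all coding genes by this rule. Their starts lay under control Kac in 4, under SB Kac in 3 and under Kbz in 2, COL1A1 and ACTA2. The hepatocyte markers thus went against the cell label at their start sites and at the 5 genes without a promoter peak. The paper describes both marks as depleted at start sites and enriched around them, so an uncovered start need not mean an unmarked gene. By the 3 kb rule the hepatocyte markers did not go against the label at APOA1 and APOA2. Within 1 kb of a start, APOA1 had control Kac only, and APOA2 had Kac in both conditions without Kbz. By that rule 3 of the 10 had control Kac, 2 SB Kac and 0 Kbz (72%, 71.3% and 60.6% of coding genes). Of the 12 markers of other cell types, 6, 7 and 4 did. TTR, TF and AHSG also had Kac within 3 kb of a coding start in both conditions, without Kbz. Of the 12 markers of other cell types, 4 likewise had no promoter peak in any list. The libraries are called by their labels below, and the part that cell identity plays in the results was not tested.

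Peaks were found at 7 of the 8 liver transcription factor genes in each list. FOXA2 was the exception in all of them. In the same window, 84.6% (Wilson 95% interval 84.1 to 85.1) of coding genes had a control Kac peak, 83.1% (82.6 to 83.7) an SB Kac peak and 75.2% (74.6 to 75.8) a Kbz peak, so the number of members with a peak was close to that background. At the members lay 31 peaks of control Kac, 31 of SB Kac and 13 of Kbz. Each group had a single library, so a difference between lists has no replicate error and was not tested. Read totals are unknown, and a missing peak means only that no enrichment passed the caller's threshold.

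Fewer members were marked at the start sites themselves. Coding start sites within 1 kb of each other were taken as 1 promoter, which gave 11 promoters for the 8 genes. Within 3 kb of a coding start, 6 of 8 members had control Kac, against 75.3% of all coding genes, 6 had SB Kac, against 74.4%, and 4 had Kbz, against 63.3%. FOXA3, CEBPA, ONECUT1 and NR5A2 had all 3 (62.9% of coding genes did). Within 1 kb these counts were 5, 5 and 4 (72%, 71.3% and 60.6% of coding genes), with HNF4A lost from both Kac lists. A coding start lay under the peak itself at 3, 3 and 2 members, where the shares over all coding genes were those given above for the marker check. The other 5 members had no start under any peak, as had 31.6% of coding genes. For the canonical start alone the counts were 3, 3 and 1 (59.3%, 60.6% and 45.9%). Control Kac and SB Kac covered starts of FOXA3, ONECUT1 and NR5A2. Kbz covered starts of FOXA3 and NR5A2. At HNF4A, FOXA1 and CEBPA the Kac peaks lay near but not over the start, which was so for 10.7% of all coding genes with control Kac and 9.46% with SB Kac.

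**Figure D1:**
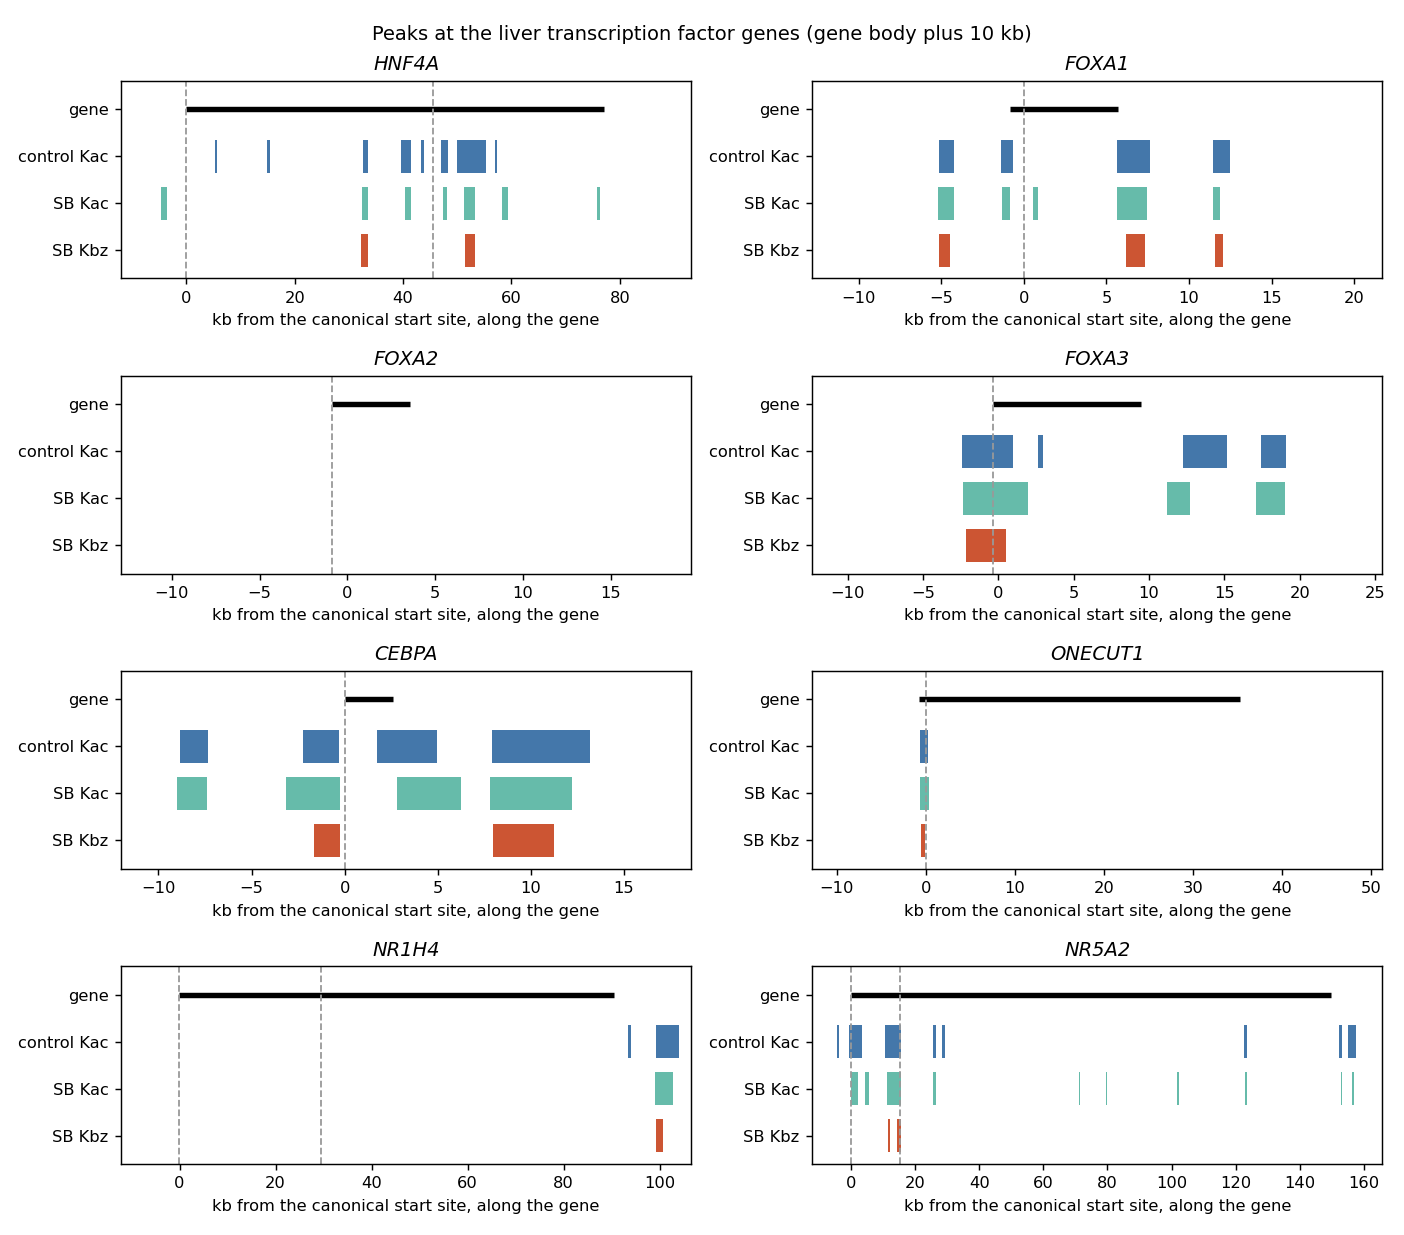
Positions of the peaks of the 3 lists at the 8 genes, in kb from the canonical start site along the direction of transcription (x axis), with 1 row per list and the gene body as a black line. Dashed lines are the first start sites of the coding promoters. FOXA2 has no peak, NR1H4 only peaks past its 3′ end, and at CEBPA and FOXA1 the peaks stand to either side of the start.

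Sequences were read from hg38 for HNF4A P2 and P1, for the promoters where the lists differed (FOXA1 and the first promoter of NR5A2), for the second promoter of NR5A2 as its marked counterpart, for FOXA2, which had no peak, and for the middle of the strongest Kbz peak of HNF4A. Each promoter is given 5′ to 3′ on the strand of its gene, with 250 bases before and 20 from the first start site. Capitals mark matches on either strand to 7 short motifs, of which no matches overlapped: TATAAA (the TATA box), CCAAT (the CCAAT box), GGGCGG (the GC box), AAAGTCC (an HNF4 site), TGTTTAC (a forkhead site), ATCAAT (an ONECUT site) and AAGGTCA (an NR5A site).
HNF4A P2 (chr20:44355449-44355718, plus strand): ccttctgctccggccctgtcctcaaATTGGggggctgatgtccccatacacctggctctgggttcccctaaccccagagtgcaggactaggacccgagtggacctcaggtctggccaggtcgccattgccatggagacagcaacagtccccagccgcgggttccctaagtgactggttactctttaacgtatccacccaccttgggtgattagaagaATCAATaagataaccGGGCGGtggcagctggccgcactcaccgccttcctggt
HNF4A P1 (chr20:44400989-44401258, plus strand): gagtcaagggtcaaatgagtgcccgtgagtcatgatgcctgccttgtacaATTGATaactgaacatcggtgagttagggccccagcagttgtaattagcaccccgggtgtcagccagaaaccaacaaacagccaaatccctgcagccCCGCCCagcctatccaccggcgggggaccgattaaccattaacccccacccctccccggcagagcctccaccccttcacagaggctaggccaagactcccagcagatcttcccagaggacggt
HNF4A Kbz peak between P2 and P1, middle 300 bases (chr20:44388490-44388789, plus strand): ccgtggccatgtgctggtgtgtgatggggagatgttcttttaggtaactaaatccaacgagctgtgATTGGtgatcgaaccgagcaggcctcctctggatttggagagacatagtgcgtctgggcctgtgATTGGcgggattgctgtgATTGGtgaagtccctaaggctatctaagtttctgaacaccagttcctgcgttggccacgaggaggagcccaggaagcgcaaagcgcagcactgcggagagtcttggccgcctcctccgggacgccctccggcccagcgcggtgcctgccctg
FOXA1 (chr14:37595230-37595499, minus strand): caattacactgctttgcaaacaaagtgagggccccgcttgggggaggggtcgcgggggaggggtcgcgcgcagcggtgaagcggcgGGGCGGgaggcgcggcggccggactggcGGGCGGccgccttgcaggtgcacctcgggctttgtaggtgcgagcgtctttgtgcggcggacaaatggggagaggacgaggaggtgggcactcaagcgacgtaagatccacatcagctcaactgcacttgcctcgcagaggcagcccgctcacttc
FOXA2 (chr20:22585436-22585705, minus strand): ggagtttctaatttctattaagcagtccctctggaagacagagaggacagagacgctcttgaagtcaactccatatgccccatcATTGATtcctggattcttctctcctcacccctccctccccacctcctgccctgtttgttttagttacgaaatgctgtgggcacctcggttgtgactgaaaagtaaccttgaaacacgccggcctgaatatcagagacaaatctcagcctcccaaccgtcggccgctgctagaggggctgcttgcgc
NR5A2 promoter 1 (chr1:200027364-200027633, plus strand): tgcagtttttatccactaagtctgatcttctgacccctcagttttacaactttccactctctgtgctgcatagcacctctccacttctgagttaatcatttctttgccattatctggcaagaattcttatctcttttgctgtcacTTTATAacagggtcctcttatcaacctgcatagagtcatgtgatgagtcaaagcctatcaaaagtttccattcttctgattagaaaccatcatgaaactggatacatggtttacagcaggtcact
NR5A2 promoter 2 (chr1:200042575-200042844, plus strand): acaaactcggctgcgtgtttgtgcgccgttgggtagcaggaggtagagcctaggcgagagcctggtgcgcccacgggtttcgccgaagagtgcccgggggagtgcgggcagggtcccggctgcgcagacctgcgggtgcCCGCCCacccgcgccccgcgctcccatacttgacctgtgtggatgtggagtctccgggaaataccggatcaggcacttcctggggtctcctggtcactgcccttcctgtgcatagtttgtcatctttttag

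HNF4A spans 77.1 kb on chromosome 20 (44355699 to 44432845, plus strand). Its P2 starts lie between 44355699 and 44355805 and its P1 starts between 44401239 and 44401401, 45.5 kb downstream. P1 was marked in both Kac lists by the 3 kb rule, and P2 in none. Kbz marked neither promoter. No peak of any list lay over a start of P1 or P2, or within 1 kb of one.

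The Kac peaks around P1 ranked low. Strength is given as the percentile of a peak by its fold over background within its own list, since folds of separate libraries were not set on 1 scale, and the −log10 q is the caller’s value corrected for multiple testing. In control cells a peak of 472 bp (44399027 to 44399498) ended 1741 bp before the first P1 start, at percentile 11.9. A second control peak, of 1379 bp (44402688 to 44404066), began 1449 bp after that start, at percentile 37.7. In SB cells a single peak of 703 bp (44403031 to 44403733) began 1792 bp after it, at percentile 15.1. Their −log10 q values were 1.87 and 2.7 in control and 1.73 in SB. A −log10 q of 2 corresponds to the false discovery rate of 0.01 that the methods state. These values are averages over each peak, so cutting them at 2 is not the caller's own limit. With that cut P1 kept 1 control Kac peak and no SB Kac peak.

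Around P2 the nearest control Kac peak (44361077 to 44361467) lay 5.38 kb downstream at percentile 2.85. The nearest SB Kac peak (44351067 to 44352079) lay 3.62 kb upstream at percentile 42.7, within 3 kb of a start of the antisense gene R3HDML-AS1. The nearest Kbz peak was 32.3 kb away.

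The strongest marks of HNF4A stood away from both promoters. The first site lay 11987 bp upstream of P1, in the first intron of the P2 transcripts. The Kbz peak there (44388026 to 44389252, 1227 bp) stood at percentile 61.6, the SB Kac peak (44388140 to 44389249) at 70.3 and the control Kac peak (44388306 to 44389251) at 85.6. All of them ended within a few bases of each other, and the start of a non-coding gene, ENSG00000233376, was annotated within 3 kb. The 300 bases printed above held 3 matches to CCAAT, all on the minus strand, and 17 CG dinucleotides.

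The other site lay downstream of P1. A Kbz peak (44407208 to 44409023, 1816 bp) began 5.97 kb after the P1 start at percentile 29.2. The SB Kac peak overlapping it (44406856 to 44409016, 2161 bp) stood at percentile 77.4. The control Kac peak (44405577 to 44411034) was 5458 bp long, the longest of all member peaks, and stood at percentile 76.1. The peaks held the start of the microRNA gene MIR3646. Another pair of Kac peaks lay 4.09 kb (control) and 4.14 kb (SB) upstream of P1, and the control one held the start of the antisense gene HNF4A-AS1.

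**Figure D2:**
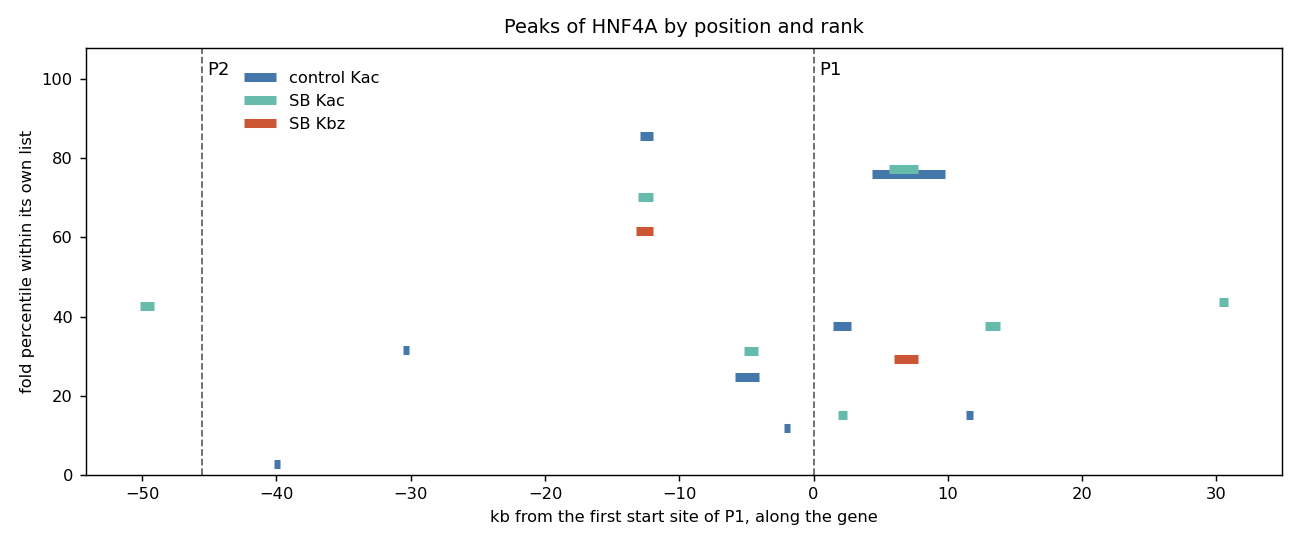
Peaks of HNF4A by distance in kb from the first P1 start (x axis) and by the percentile of their fold within their own list (y axis). Dashed lines are the first starts of P2 and P1, and bars span the peaks. The 2 Kbz peaks, at percentiles 61.6 and 29.2, both lie away from the promoters, and no bar crosses a dashed line.

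Of the motifs searched, P1 and P2 both held the GC box and the ONECUT motif, and only P2 held the CCAAT box. P1 held a GC box at bases 148 to 153 of the printed run and an ONECUT match at bases 51 to 56, both on the minus strand. P2 held a GC box at bases 233 to 238 and an ONECUT match at bases 218 to 223, both on the plus strand, and a CCAAT match. Among 35116 RefSeq promoters cut to the same 270 bases, 5.86% held the ONECUT motif, 43.7% the GC box and 33.1% the CCAAT box. The HNF4, forkhead and NR5A motifs, held by 3.39%, 3.2% and 3.63%, matched in none of the regions printed. Of these regions, the TATA box, held by 11.0%, matched only in promoter 1 of NR5A2, on the minus strand. The CEBPA promoter, which is not printed, also held a TATA match, on the plus strand at -30 from its start. P1 and P2 had 9 and 10 CG dinucleotides and a GC content of 57.8% and 58.9%. These are letter matches and do not show binding.

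The FOXA genes, which encode closely related pioneer factors, gave 3 different pictures. FOXA2 (chromosome 20, 22580998 to 22585455, minus strand) had no peak in its window in any list, with coding starts at 22585455, the start of the printed run, and 22584572, the canonical one. In all, 13.7% (13.2 to 14.2) of coding genes had no peak in any list by the same rule. The nearest peaks were at a single place 102 kb upstream of the canonical start. There, Kbz covered 22686116 to 22686826 at percentile 87.2, SB Kac 22686257 to 22686661 at 76.4 and control Kac 22686275 to 22686665 at 86.8. Starts of the long non-coding genes LINC01747 and ENSG00000283072 lay within 3 kb of these peaks. On the other side the nearest control Kac peak was 775 kb away, which left FOXA2 in a stretch of 877 kb with no control Kac peak and 918 kb with no SB Kac or Kbz peak. Of all coding genes, 6.81% had a canonical start as far or farther from a control Kac peak, 8.08% from an SB Kac peak and 11.5% from a Kbz peak. GC was 69.7% within 500 bp of the canonical FOXA2 start. Of coding starts with a GC of 65 to 75%, 71.6% lay under a control Kac peak.

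FOXA1 (chromosome 14, 37589552 to 37596059, minus strand) had peaks around the gene but none over its start at 37595249. Control Kac had a peak 670 bp upstream (37595919 to 37596637, percentile 84.3). SB Kac had one 862 bp upstream (37596111 to 37596580, percentile 65.7) and a short one of 316 bp inside the gene, 563 bp downstream (37594371 to 37594686, percentile 75.3). Kac thus flanked the FOXA1 start, and no Kbz peak lay within 3 kb of it. The stretch without SB Kac over the start was 1.42 kb long with a GC content of 67.3%. TTC6, a neighboring gene, has a start within 3 kb of these peaks.

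Kbz at FOXA1 lay at 3 places farther out, each overlapping Kac of both conditions. The first was 4.46 kb upstream (37599713 to 37600374, percentile 36.5), where control Kac stood at 94.5 and SB Kac at 85.7. The second lay just past the 3′ end (37587913 to 37589078, percentile 54.5). The Kac peaks there, which reached into the gene, were among the strongest of the members, at 96.3 in control and 96.0 in SB. They held the start of ENSG00000289903. The third lay beyond the gene (37583214 to 37583652, percentile 20.4). At each of these 3 places the Kbz peak stood at a lower percentile of its list than the Kac peaks did of theirs. The Kbz list is the shortest, so percentiles of different lists do not compare as absolute ranks.

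FOXA3 (chromosome 19, 45863989 to 45873797, plus strand) was the only FOXA gene with all marks over its start. Its control Kac peak (45861901 to 45865312) stood at percentile 95.3, its SB Kac peak (45862000 to 45866310) at 95.9 and its Kbz peak (45862193 to 45864847) at 79.5. Each covered both annotated coding starts. Each also held a start of SYMPK, which encodes the polyadenylation scaffold symplekin, so that peaks over this shared region cannot be assigned to FOXA3 alone. Other Kac peaks lay 11.2 kb or more downstream of the start, apart from 1 control Kac peak of 280 bp in the gene, at percentile 18.3, that had no SB counterpart.

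CEBPA, which restrains proliferation and drives hepatocyte genes, had the largest share of its window under peaks in each list and also the shortest window, 22.6 kb (chromosome 19, 33299934 to 33302534, minus strand). Control Kac peaks covered 50.4% of its window, SB Kac peaks 54.6% and Kbz peaks 20.5%. Over the windows of all coding genes these shares were 6.31%, 6.03% and 1.79%. The strongest control and SB Kac peaks lay 7.88 and 7.83 kb downstream of the start, past the 3′ end. Control Kac there (33289359 to 33294651) stood at percentile 99.2, SB Kac (33290334 to 33294706) at 99.4 and Kbz (33291320 to 33294572) at 96.5.

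The promoter peaks of CEBPA lay just upstream of the start and ranked almost as high. The Kbz peak (33302809 to 33304196) began 275 bp upstream at percentile 96.6, SB Kac (33302801 to 33305674) 267 bp upstream at 98.3, and control Kac (33302839 to 33304763) 305 bp upstream at 96.7. They held a start of CEBPA-DT, the divergent transcript of the gene. The start and the next 1.72 kb, most of this short gene, were under no control Kac peak. The stretch between the control Kac peaks measured 2.02 kb and had a GC content of 73.0%, against 63.8% in the peak before it and 57.8% in the peak after it. GC within 500 bp of the start was 77.1%. Among coding starts with a GC of 75% or more, 45.1% were covered by control Kac, 54.6% by SB Kac and 26.8% by Kbz, compared with 71.6%, 75.1% and 53.3% at a GC of 65 to 75%. The part of base content in the missing calls was not tested.

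ONECUT1 (chromosome 15, 52755053 to 52791078, minus strand) had 1 peak per list in a window of 56.0 kb, all at its start at 52790336. The Kbz peak (52790432 to 52790839) was only 408 bp long, percentile 13.1 by length, but stood at percentile 90.3 by fold. It ended 96 bp short of the start on the upstream side. SB Kac (52789924 to 52790961, 1038 bp) and control Kac (52790046 to 52790955, 910 bp) covered the start at percentiles 83.8 and 90.4. No start of another gene lay within 3 kb of these peaks. ONECUT1 was the member with the least of its window under control Kac among those with a peak, 1.62%.

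NR1H4, which encodes the bile acid receptor FXR, was unmarked over its whole length (chromosome 12, 100473708 to 100564414, plus strand). Neither of its promoters, with first starts at 100473708 and 100503360, had a peak within 3 kb in any list. The nearest control Kac peak was 46045 bp from the canonical start, and the nearest SB Kac and Kbz peaks 99078 and 99293 bp. Its membership among the genes with peaks rested on peaks past the 3′ end. These were SB Kac (100572944 to 100576694), Kbz (100573159 to 100574458) and the larger control Kac peak (100573143 to 100577909), and all of them held the start of GAS2L3, a cytoskeletal linker gene. A further control Kac peak of 692 bp (100567291 to 100567982) had no SB or Kbz counterpart. Without the 10 kb flank NR1H4 had no peak. With FOXA2, it was 1 of 2 members without a promoter peak in any list, where 22.3% of coding genes lacked one.

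NR5A2, the receptor also called LRH-1 and a regulator of bile acid synthesis and cholesterol transport, had separate marks at its promoters (chromosome 1, 200027614 to 200177420, plus strand). At promoter 1, with 3 starts from 200027614 to 200027883, control Kac (200027180 to 200031269, percentile 37.6) and SB Kac (200027553 to 200029741, percentile 62.4) covered the starts. Kbz did not mark it: its nearest peak was 11.2 kb away. At promoter 2, with its first start at 200042825, control Kac (200038283 to 200043411, percentile 63.4), SB Kac (200038849 to 200043309, percentile 79.6) and Kbz (200041926 to 200043292, percentile 27.7) all covered that start. The promoters differed in sequence. Promoter 1 had 0 CG dinucleotides in the 270 bases printed and a GC content of 39.6%, and promoter 2 had 21 and 64.1%.

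A further pair of Kbz peaks was found in NR5A2. The first (200039101 to 200039775, percentile 30.3) lay under the same Kac peaks as promoter 2, and the other, of 280 bp (200053754 to 200054033, percentile 6.3), lay in the gene at a place that had Kac in both conditions. All 3 Kbz peaks of NR5A2 were thus in the lower part of the Kbz list. Elsewhere in the gene and its flanks each Kac list had peaks of its own. SB Kac had 4 peaks of 288 to 1105 bp with no control counterpart and control Kac had 2, of 727 and 983 bp, with no SB counterpart. Their −log10 q was at most 2.31.

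**Figure D3:**
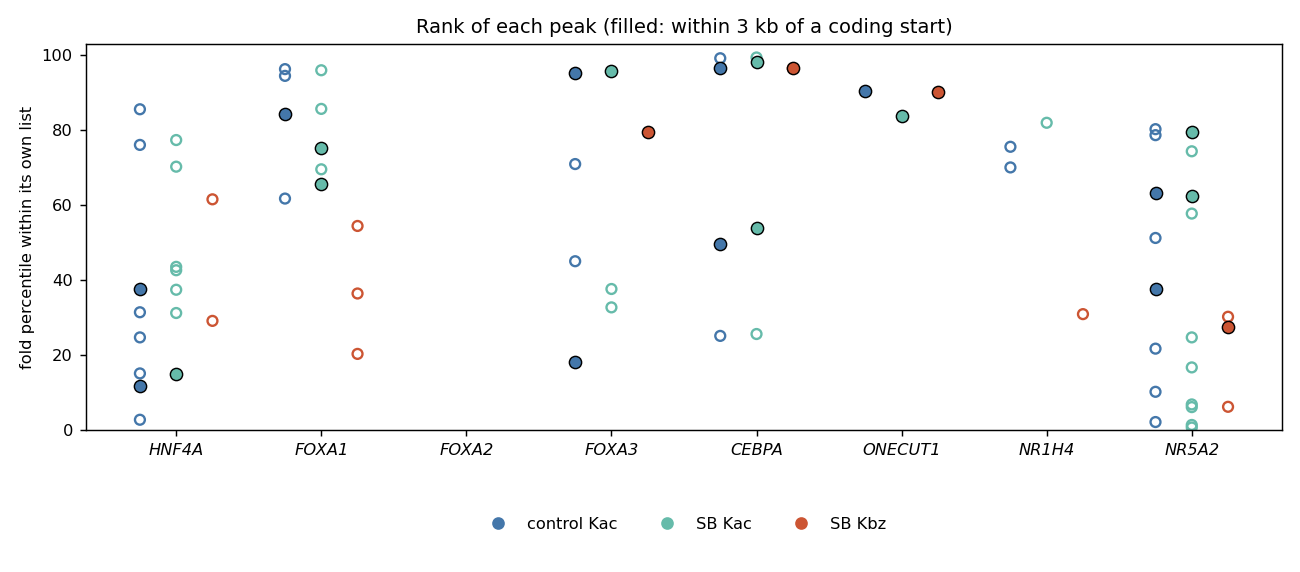
Percentile of fold within its own list (y axis) for every peak at the 8 genes (x axis), with control Kac at the left, SB Kac in the middle and Kbz at the right of each gene. Filled points are peaks within 3 kb of a coding start of that gene. CEBPA has the highest points in each list, FOXA2 has none, and the promoter points of HNF4A lie at or below 37.7.

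Next, Kac was compared between control and SB at the members together. Overlap with SB Kac was found for 23 of 31 control Kac peaks, and overlap with control Kac for 23 of 31 SB Kac peaks. Over all pairs of a coding gene and a peak in its window these shares were 71.6% and 74%, so 23 of 31 was close to the background. The 8 control Kac peaks without SB Kac were 4 at HNF4A, 2 at NR5A2 and 1 each at FOXA3 and NR1H4. The 8 SB Kac peaks without control Kac were 4 at NR5A2, 3 at HNF4A and 1 at FOXA1. CEBPA and ONECUT1 had none of either kind. Peaks in 1 Kac list only were short, with median lengths of 494.5 bp in control and 580.5 bp in SB, against 1738 and 1515 bp for shared ones. Their median percentiles of fold were 16.8 and 31.1, against 75.6 and 69.6. The same lengths and ranks over all coding genes are not given, so these differences cannot be read as particular to the members. Kbz overlapped 0 of these 16 peaks. Over all coding genes it overlapped 1.29% of control Kac peaks without SB Kac and 2.35% of SB Kac peaks without control Kac, so this was close to the background.

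By bases, 63.1% of control Kac at the members was also in SB Kac, and 75.8% of SB Kac was also in control Kac. Over all coding genes the shares were 64.8% and 67.7%. The share of control Kac bases kept ranged from 42.9% at HNF4A and 53.0% at NR5A2 to 86.4% at CEBPA, and at ONECUT1 all 910 bases were kept. The covered length was larger in control at HNF4A (11353 bases against 7827), NR5A2 (15930 against 10867), FOXA1, FOXA3 and NR1H4, and larger with SB at CEBPA (12332 against 11401) and ONECUT1. Covered length moves with how much of each library was called, and the level of Kac cannot be read from it.

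Kbz at the members lay almost wholly inside Kac. All 13 Kbz peaks overlapped both SB Kac and control Kac, where the shares over all coding genes were 96% and 95.2%. Of the Kbz bases, 98.3% were inside SB Kac, against 94.8% over all coding genes. In the other direction, 36.0% of the SB Kac bases of the members lay under Kbz, against 28.1%. At the single genes this share ran from 21.4% at NR5A2 through 37.3% at HNF4A and 37.6% at CEBPA to 52.0% at FOXA1. It was 85.4% at NR1H4, where the region is that of GAS2L3.

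Whether a Kac peak at the members had Kbz went with its rank. The same ranks over all coding genes are not given, so this cannot be read as particular to these genes. The 12 SB Kac peaks with Kbz stood between percentiles 57.8 and 99.4 with a median of 82.9, and the 19 without stood between 0.778 and 75.3 with a median of 32.8. The share with Kbz, 12 of 31, was close to the 40.9% over all coding genes, and 12 of 31 control Kac peaks had Kbz, against 39.4%. In position, 4 of 13 Kbz peaks lay within 3 kb of a coding start of the member, and 9 lay farther away. Over all coding genes 51.7% of such peaks were within 3 kb. Among Kac peaks 10 of 31 were this close in control, against 32.5%, and 9 of 31 with SB, against 32.9%. In 5 of the 13 Kbz peaks the start of another gene was annotated, namely MIR3646, ENSG00000289903, SYMPK, CEBPA-DT and GAS2L3. Only the NR5A2 promoter 2 peak covered a coding start of a member without also holding a start of another gene.

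The strongest promoter peak of each marked member was ranked against the same value of all marked coding genes. With control Kac the median percentile was 87.3 over 6 members and 82.9 over all. With SB Kac it was 81.7 over 6 members against 85.9, and with Kbz 84.9 over 4 members against 68.5. The Kbz values ranged from 27.7 at NR5A2 over 79.5 at FOXA3 and 90.3 at ONECUT1 to 96.6 at CEBPA.

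Other factors of the hepatocyte network were then listed. Of 26 such genes, 23 had a control Kac, 23 an SB Kac and 22 a Kbz peak within 3 kb of a coding start (75.3%, 74.4% and 63.3% of all coding genes). None was found at 2 (22.3% of all coding genes). Those 2 were the xenobiotic receptors NR1I2 (PXR) and NR1I3 (CAR). By their strongest promoter peak the marked genes ran from percentile 26.7 (CREB3L3) to 98.8 (CEBPB) in control Kac, with a median of 85.5. In SB Kac they ran from 42.1 (HLF) to 98.5 (NR1H3) with a median of 87.8, and in Kbz from 7.5 (HHEX, an early liver bud factor) to 99.5 (ATF5) with a median of 77.3. PPARGC1A, a coactivator of HNF4A, had Kbz within 3 kb of a start at percentile 15.1 and no Kac peak there. ONECUT2 and HLF had Kac in both conditions without Kbz.

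Among the close paralogs of the members, 9 of 10 had control Kac, 9 SB Kac and 7 Kbz within 3 kb of a coding start (75.3%, 74.4% and 63.3% of all coding genes). HNF4G, the close relative of HNF4A, had a coding start, though not its canonical one, under a peak in each list, and its strongest peaks within 3 kb of a start stood at percentiles 94.9, 95.8 and 91.6, where the P1 peaks of HNF4A stood at or below 37.7. CEBPB stood at 98.8, 87.3 and 89.5, with no start under a peak, as at CEBPA. CEBPD had no promoter peak. ONECUT2 and NR5A1 had Kac but no Kbz, and ONECUT3 had all marks.

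Genes known as targets of the members were listed next. Of 12, 7 had control Kac, 7 SB Kac and 4 Kbz within 3 kb of a coding start (75.3%, 74.4% and 63.3% of all coding genes). The start itself was covered by control Kac in 2, by SB Kac in 1 and by Kbz in 0 (64.6%, 65% and 51.1%). NR0B2 (SHP), the repressor induced by FXR, was the gene with a start under Kac in both conditions, and APOC3 had it in control only. CYP7A1 and CYP8B1, enzymes of bile acid synthesis, had no promoter peak. The lists differed at ABCB11 (control Kac only), SLC51A and G6PC1 (SB Kac only), PCK1 (control Kac and Kbz) and TAT (Kbz only). The peaks there stood at or below percentile 38.1, and SLC51B, TTR and APOC3 had Kac in both conditions but no Kbz.

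Transcription factors of other lineages were the last list. Of 22, 21 had control Kac, 21 SB Kac and 17 Kbz within 3 kb of a coding start (75.3%, 74.4% and 63.3% of all coding genes). The start itself was covered in 16, 17 and 10 (64.6%, 65% and 51.1%). By their strongest promoter peak they ran from percentile 27.7 (MYOG, of muscle) to 97.8 (MYOD1, of muscle) in control Kac, with a median of 86.2. In SB Kac they ran from 9.09 (MYOG) to 98.0 (OLIG2, of oligodendrocytes) with a median of 90.1, and in Kbz from 18.3 (PAX2, of kidney) to 97.4 (OLIG2) with a median of 65.3. The lists differed at GATA1 (SB Kac only) and TP63 (control Kac only), and TBX21, MYOG and SOX10 had Kac without Kbz. No test between these gene lists was made, and 5 genes belonged to more than 1 list.

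**Figure D4:**
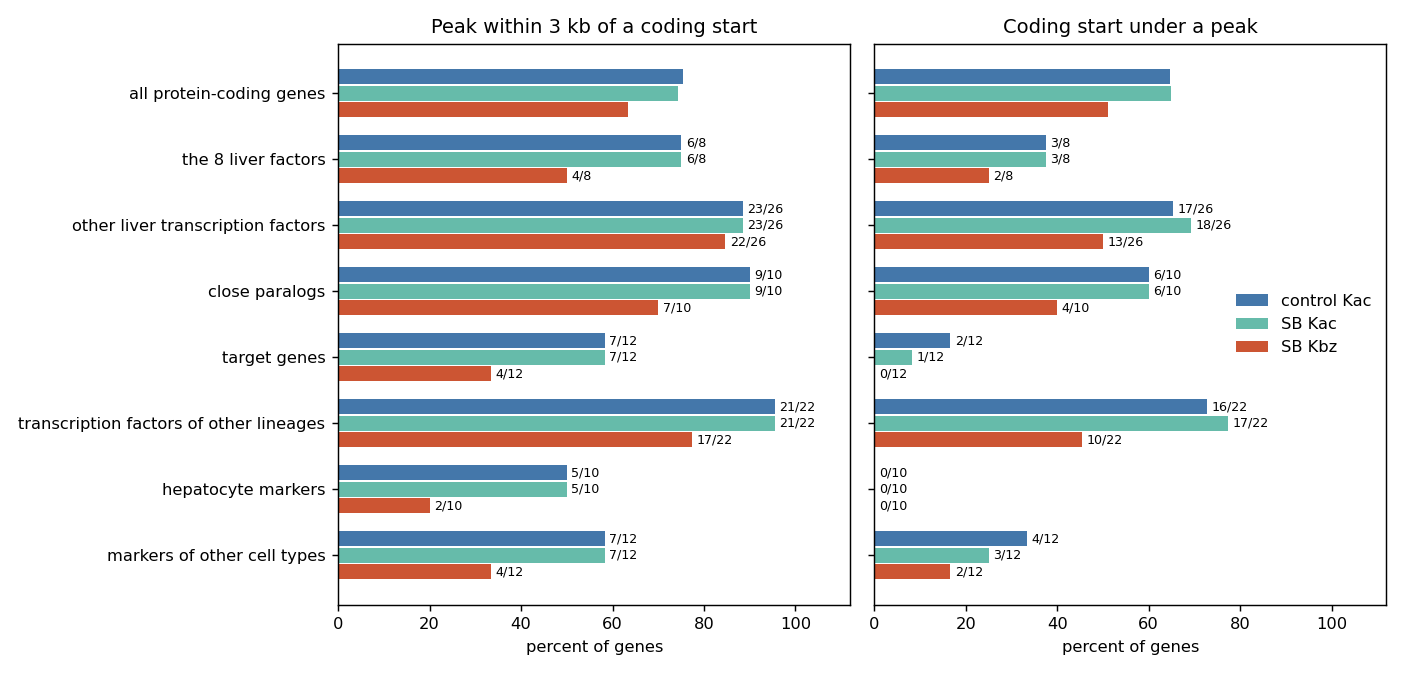
Percent of genes (x axis) with a peak within 3 kb of a coding start (left) and with a coding start under a peak (right), for all coding genes and for each gene list, colored by peak list, with counts beside the bars. The 8 liver factors stand at 3 of 8, 3 of 8 and 2 of 8 on the right, and the hepatocyte markers at 0 of 10 in each list.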

How the data were processed

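HepG2 chromatin from control and SB-treated cells was immunoprecipitated with pan anti-Kac or anti-Kbz antibody, 1 library per group. The authors digested chromatin with MNase, sequenced 50 bp single reads, aligned them to hg38 with Bowtie2 2.2.6, kept uniquely mapped reads, removed duplicates with SAMtools 0.1.19 and called peaks with MACS2 2.1.1 at a false discovery rate of 0.01. The tool versions are those of the submitters' processing notes. Peaks were called per library. The broad peak lists as deposited give, per peak, the fold (a linear ratio of read density over background) and −log10 p and −log10 q, all averaged over the peak. Folds were only ranked within a list. The lowest deposited −log10 q, as an average over the peak, was 1.31 in each list, where the stated rate corresponds to 2. The paper reports fewer Kbz peaks than the 24308 of the deposited list. Whether the deposited lists were called at the stated rate is therefore not known. Depth is unknown.

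Sequences other than chromosomes 1 to 22, X and Y held 3 control Kac peaks, which were not used. No peak reached past a chromosome end of hg38. Genes and starts came from GENCODE 44, and promoter sequences for motif shares from RefSeq (GRCh38.p14). Overlap meant 1 bp or more. Overlap code was tested on simulated data. No test between groups was possible with 1 library each, and intervals cover counting error only. In the list of other liver factors, 2 genes are not reported here, nor is 1 motif. The members and gene lists were chosen with earlier results of these data known. All members were named with every Kbz peak and every peak at a start, and of the other lists the genes without a promoter peak or where lists differed. Other genes of these lists were named after their values were seen. Alternatives were a −log10 q of at least 5 or 2, the 15000 peaks per list with the highest −log10 p, merging within 1 kb, flanks of 0 or 50 kb, 50% overlap, a 1 kb window, starts under the peak and canonical starts only. Motifs, GC values and the sequences of NR5A2 promoter 2, FOXA2 and the HNF4A Kbz peak were added after values were seen, and the motif letters were revised once, when a C/EBP motif was dropped. Python 3.11.15, numpy 2.4.6, pandas 2.3.3, scipy 1.17.1 and matplotlib 3.10.9 were used.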

Additional observations from a re-analysis of the deposited data

How the results depend on the processing

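The 16 values below were recomputed under 10 settings, each with a single change, which gave 101 recomputed values. A count stayed within 1.5 times of the original, or a share inside its interval, in 61, and 40 moved. Bases within a peak are not independent, and base shares counted as moved after shifts as small as 98.3% to 98.7%. The tally of moved values therefore overstates the change in those shares. No paired analysis was possible because no group has a second library, and for the same reason no replicate was left out. Depth is unknown, so peak counts were not corrected for it. At a −log10 q of 5 or more, 11 peaks of control Kac, 12 of SB Kac and 5 of Kbz were left at the members, Kbz was left at 4 members, and 0 HNF4A promoters were marked by Kac in either condition. Shared Kac bases were 68.9% of control and 64.7% of SB, Kbz bases inside SB Kac 98.7%, and SB Kac bases under Kbz 34%. At a −log10 q of 2 or more, 0 HNF4A promoters were marked by SB Kac, and these base shares were 64.1%, 73.8% and, under Kbz, 37.8%. With 15000 peaks per list there were 10 peaks of control Kac, 10 of SB Kac and 6 of Kbz, 0 HNF4A promoters with control or SB Kac, and shares of 72.6%, 66%, 87.8% and 37%.

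Without the flank the members had 19, 18 and 7 peaks, Kbz at 4 members, shared Kac bases of 56.5% and 71.9%, and 31.5% of SB Kac under Kbz. With 50 kb there were 54, 49 and 23 peaks. With a window of 1 kb, 0 HNF4A promoters were marked by control or SB Kac. When the start had to lie under the peak, 3, 3 and 2 members were marked by control Kac, SB Kac and Kbz, and 0 HNF4A promoters by Kac. Merging moved none of the values. P2 was marked under none of the settings, but none of them widened the 3 kb promoter window or added peaks. They could therefore not have marked it. The stricter settings keep fewer peaks by construction, and the cause of the other moves was not tested.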
